A study of Mus musculus with 11 samples.

Results

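The genes described here are 10 mouse genes that carry dietary fat through the intestinal cell and out of it in chylomicrons: the intracellular fatty acid carriers Fabp1 and Fabp2, the triglyceride-making enzymes Mogat2 and Dgat1, the assembly protein Mttp, the apolipoproteins Apob, Apoa1, Apoa4 and Apoc3, and the lipoprotein receptor Scarb1. They were chosen by name for this role. All 10 were found among the 38283 genes of the count table, and all 10 passed the filter on low counts that left 14332 genes tested.

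The study measured RNA of sorted mouse duodenal epithelial cells in 11 libraries from 2 reporter strains, all on standard chow with water freely available and a regular light and dark cycle. In the Neurod1-cre-eYFP strain, Cre expressed from Neurod1 switches on a yellow fluorescent reporter, which stays on in descendants of a cell that once expressed Neurod1, a transcription factor of enteroendocrine cells. In the GluVenus strain, the Venus reporter marks cells that use the proglucagon gene promoter, such as L-cells. The groups were NeuroD1 positive (3 libraries, labelled NeuroD1_positive_6360, NeuroD1_positive_6361 and NeuroD1_positive_6362), NeuroD1 negative (3, with the same numbers in their labels), Glu positive (3, labelled Glu_positive_5254, Glu_positive_5160 and Glu_positive_4665) and Glu negative (2, Glu_negative_5254 and Glu_negative_4665), where positive and negative name the reporter gate and the negative cells are the other cells of the same digest. Values per library are given in that order. The labels give no age or sex, and leave unsaid whether each number is its own animal. The p-values rest on the spread between libraries, which may then be in part technical.

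After a meal, enterocytes take up fatty acids and monoglyceride, and fatty acid binding proteins carry them through the cytosol. Mogat2 and Dgat1 rebuild triglyceride at the endoplasmic reticulum, and Mttp loads it onto Apob to form the core of the chylomicron, to which Apoa1, Apoa4 and Apoc3 are added. These genes are known as genes of the absorptive enterocyte, while enteroendocrine cells make up a small minority of the epithelium and secrete hormones, several of them in response to fat.

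Promoter sequences are shown for 3 of the genes that fell in NeuroD1 positive cells and for Apob, which did not pass the test in either strain. Of the 10 genes, 6 had an entry in the RefSeq promoter table of build GRCm38.p6. In the 250 bases before each RefSeq start, 3 short motifs were searched on both strands: CAAAGTNC (a core of HNF4 type sites), GTTAAT (part of HNF1 sites) and AGGTCA (part of nuclear receptor sites, which shares letters with part of the first). Capitals mark the matches, and only bases before the GENCODE gene start are printed, 5′ to 3′ on the strand of the gene, for chr6:71199629-71199826 (Fabp1), chr3:122894822-122895071 (Fabp2), chr9:46240594-46240695 (Apoa4) and chr12:7977427-7977647 (Apob), all on the plus strand.
Fabp1: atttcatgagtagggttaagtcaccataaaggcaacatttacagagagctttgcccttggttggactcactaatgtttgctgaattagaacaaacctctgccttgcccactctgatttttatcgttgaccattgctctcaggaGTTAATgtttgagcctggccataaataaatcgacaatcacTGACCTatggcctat
Fabp2: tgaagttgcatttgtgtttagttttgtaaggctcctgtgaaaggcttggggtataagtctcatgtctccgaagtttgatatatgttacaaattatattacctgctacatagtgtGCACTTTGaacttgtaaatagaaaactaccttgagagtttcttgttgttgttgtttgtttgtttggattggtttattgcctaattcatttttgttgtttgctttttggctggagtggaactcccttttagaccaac
Apoa4: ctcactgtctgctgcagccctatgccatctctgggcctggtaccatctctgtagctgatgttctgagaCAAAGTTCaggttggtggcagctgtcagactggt
Apob: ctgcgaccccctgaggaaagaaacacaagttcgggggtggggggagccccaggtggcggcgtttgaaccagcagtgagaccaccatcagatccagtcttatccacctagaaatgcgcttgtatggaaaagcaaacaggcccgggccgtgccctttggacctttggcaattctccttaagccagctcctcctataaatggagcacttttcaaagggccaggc

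The core CAAAGTNC was found in Fabp2, where it begins at position -136 from the RefSeq start and reads on the minus strand, and in Apoa4, at position -182 on the plus strand. It was in 2 of the 6 genes' windows and in 3.4% of the 32851 promoters searched. Fabp1 held GTTAAT, which 6.43% of promoters held, and AGGTCA, which 14.0% of promoters held. The windows of Apoa1, Apob and Mttp held none of these motifs. Apoa1 and Mttp also fell in NeuroD1 positive cells and are not shown, so the 3 fallen genes shown are those with a match. The motifs were chosen with these sequences in view, and a match describes letters only.

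Total counts ran from 2279595 to 5722381 a library. Mitochondrial ribosomal RNA (mt-Rnr1 with mt-Rnr2) took 27.5% to 33.9% of the counts in 5 libraries, and is listed at 0 in NeuroD1_negative_6360 and in all 5 Glu libraries. NeuroD1_negative_6360 stood apart from the other libraries of its group, so results for the NeuroD1 strain are also given without it, and strain and this difference cannot be told apart in comparisons between the strains. Sorting matched the labels: Neurod1 averaged 487 CPM (counts scaled by TMM factors to a common library size) in NeuroD1 positive against 42.5 in NeuroD1 negative cells, and 461 in Glu positive against 22.2 in Glu negative cells, and all 8 enteroendocrine markers rose in the positive cells of both strains. In such bulk samples, fewer cells of a type and less RNA per cell cannot be told apart.

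In the NeuroD1 strain, 7 of the 10 genes were lower in positive cells, 1 was higher and 2 did not pass the test (edgeR quasi-likelihood test, adjusted p under 0.05). Of all genes tested, 7.61% were called lower and 6.57% higher in that comparison. The median of the 10 log2 fold changes was -2.68, against 0.02 over all genes tested. In the Glu strain, 4 of the 10 were lower and 0 higher, where 2.41% of all genes were called lower and 4.22% higher, and the median of the 10 was -0.74 against 0.12 over all genes. DESeq2 called none of the 10 higher there either, and Scarb1 had an unadjusted p of 0.0233.

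When the Glu groups were fitted alone, Apoa1 was the 1 of the 4 that still passed, and the adjusted p was 0.0616 for Apoa4, 0.0659 for Fabp1 and 0.0513 for Dgat1.

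**Figure D1:**
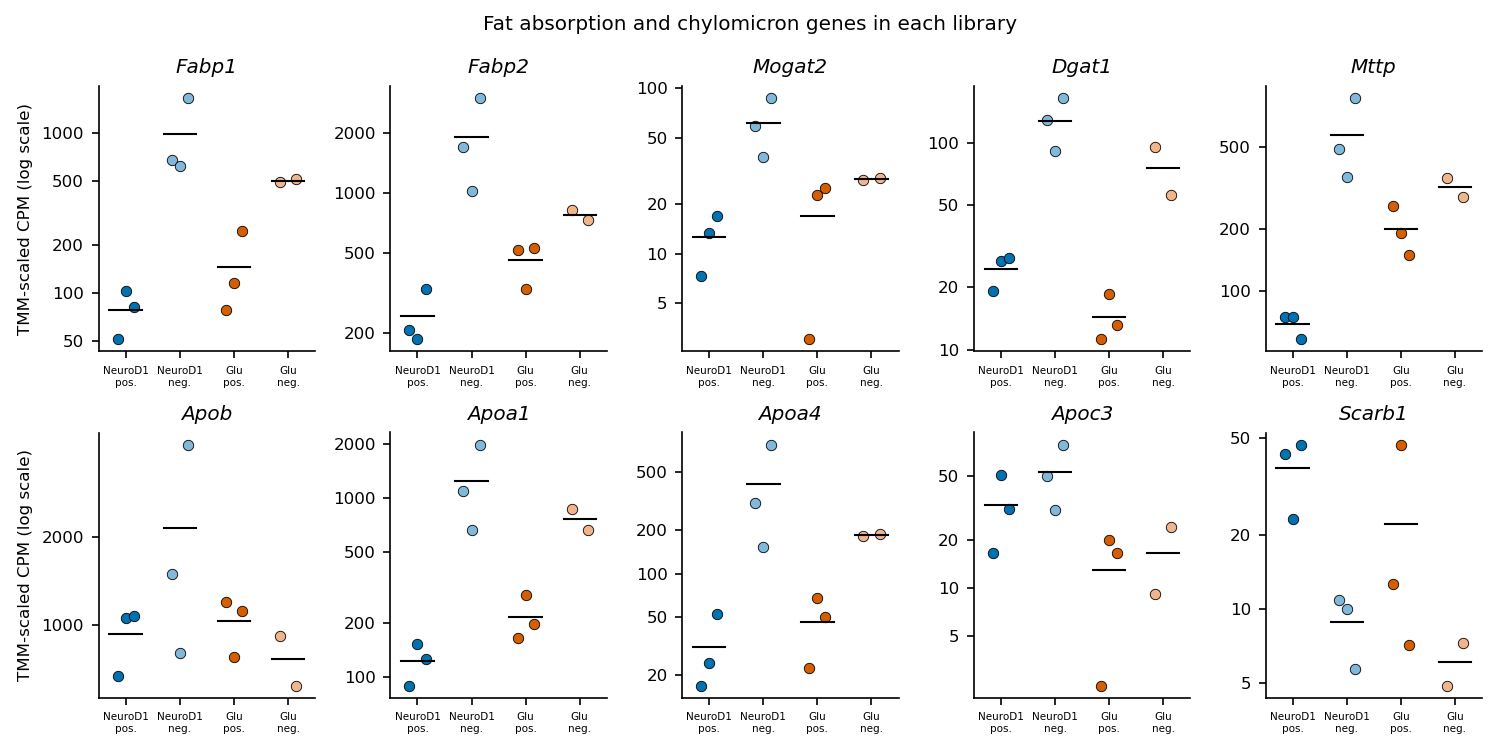
Level of each gene in each library, in TMM-scaled CPM on a log axis, with 1 point per library and a bar at the group mean (3 libraries per group, 2 for Glu negative). Points of positive and negative cells separate in both strains for Fabp1, Fabp2, Mogat2, Dgat1, Mttp, Apoa1 and Apoa4, and overlap in both strains for Apob and Apoc3. Fabp2, Mogat2 and Mttp did not pass the test in the Glu strain despite separate points. How many of all genes have separate points was not counted, and groups of 2 or 3 libraries can separate without a difference.

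Both carriers were lower in NeuroD1 positive cells, and Fabp1 also in Glu positive cells. Positions are those of the whole gene in GRCm38 (GENCODE vM21), and each gene is protein coding. Fabp1 (chr6:71199827-71205023), the liver-type fatty acid binding protein that is also abundant in the proximal intestine, was at 51.4, 103 and 82.2 CPM in the 3 NeuroD1 positive libraries and at 680, 622 and 1650 CPM in the 3 NeuroD1 negative ones. In the Glu strain it was at 78.0, 115 and 245 CPM in positive libraries, against 494 and 513 CPM in negative ones. Every positive library lay below every negative library of its strain. Fabp1 fell by 3.64 ± 0.48 (SE) on the log2 scale in NeuroD1 positive cells (12.4-fold lower, adjusted p = 4.45e-05, edgeR) and by 1.78 ± 0.47 in Glu positive cells (3.44-fold lower, adjusted p = 0.0302). The NeuroD1 value was -3.04 without NeuroD1_negative_6362 and still passed (adjusted p = 0.000232). The Glu call was lost without Glu_positive_5254 (adjusted p = 0.059), Glu_positive_5160 (0.079), Glu_negative_5254 (0.16) or Glu_negative_4665 (0.184), and the log2 value was -2.38 without Glu_positive_4665.

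Fabp2 (chr3:122895072-122899506), the intestinal fatty acid binding protein, was at 207, 185 and 331 CPM in the 3 NeuroD1 positive libraries and at 1700, 1030 and 3010 CPM in the 3 negative ones. It was at 519, 333 and 534 CPM in the Glu positive libraries, against 829 and 731 CPM in negative ones. Both strains gave groups that did not overlap, with a wider distance in the NeuroD1 strain. Fabp2 fell by 2.99 ± 0.40 on the log2 scale in NeuroD1 positive cells (adjusted p = 4.79e-05). Its value of -0.75 ± 0.41 in the Glu strain did not pass (adjusted p = 0.275).

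Both enzymes of triglyceride synthesis were lower in NeuroD1 positive cells. Mogat2 (chr7:99219084-99238619), which adds a fatty acid to monoglyceride, was at 7.34, 13.4 and 17.0 CPM in the NeuroD1 positive and at 59.2, 38.2 and 87.3 CPM in the NeuroD1 negative libraries. Its Glu values were 3.03, 22.7 and 25.1 CPM in positive libraries, against 27.9 and 28.6 CPM. Glu_positive_5254 was far below the other libraries of its group, and the other 2 lay just below the negative ones. Mogat2 fell by 2.28 ± 0.62 on the log2 scale in the NeuroD1 strain (adjusted p = 0.0181), a call lost without NeuroD1_positive_6360 (adjusted p = 0.0863), NeuroD1_positive_6361 (0.0598) or NeuroD1_negative_6362 (0.0905). The Glu value was -0.73 ± 0.65 (adjusted p = 0.54).

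Dgat1 (chr15:76502015-76511953), which makes triglyceride from diglyceride, was at 19.1, 26.7 and 27.8 CPM in NeuroD1 positive libraries and at 128, 90.9 and 164 CPM in NeuroD1 negative ones. It was at 11.2, 18.6 and 13.2 CPM in the Glu positive libraries, against 95.3 and 55.6 CPM in negative ones. The groups were apart in both strains by a like distance. Dgat1 fell by 2.37 ± 0.40 on the log2 scale in NeuroD1 positive cells (5.18-fold lower, adjusted p = 0.000516) and by 2.39 ± 0.43 in Glu positive cells (5.26-fold lower, adjusted p = 0.00242). The mean of the positive cells was 19.2% of that of the negative cells in the NeuroD1 strain and 19.0% in the Glu strain. Without Glu_negative_5254 the Glu call was lost (log2 value -1.96, adjusted p = 0.0679).

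Of the assembly genes, Mttp fell in NeuroD1 positive cells, and Apob did not pass in either strain. Mttp (chr3:138089854-138144968), which transfers triglyceride to the nascent lipoprotein, was at 74.9, 75.2 and 58.3 CPM in NeuroD1 positive libraries and at 491, 358 and 868 CPM in the negative ones. It was at 259, 192 and 150 CPM in the Glu positive libraries, against 353 and 287 CPM in negative ones. No NeuroD1 positive library reached even the lowest Glu positive one. Mttp fell by 3.04 ± 0.37 on the log2 scale in NeuroD1 positive cells (8.24-fold lower, adjusted p = 2.4e-05), and its Glu value of -0.68 ± 0.38 did not pass (adjusted p = 0.29).

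Apob (chr12:7977648-8016835), the structural protein of the chylomicron, was at 670, 1060 and 1070 CPM in NeuroD1 positive libraries and at 1490, 806 and 4120 CPM in the NeuroD1 negative ones. Among Glu libraries it was at 1200, 780 and 1120 CPM in positive libraries, and at 915 and 621 CPM in the negative libraries. The groups overlapped in both strains, and NeuroD1_negative_6362 was the highest library of all. The log2 fold change was -1.20 ± 0.44 in the NeuroD1 strain (adjusted p = 0.0824), with a 95% confidence interval of -2.13 to -0.26, and 0.43 ± 0.50 in the Glu strain (adjusted p = 0.65), with an interval of -0.61 to 1.47. The NeuroD1 value passed without NeuroD1_negative_6361 (-1.57, adjusted p = 0.0182) and with library totals in place of scaling factors (-1.42, adjusted p = 0.0247), with no filter on low counts (adjusted p = 0.00287) and with only the 2 groups compared in the fit (adjusted p = 0.0467), and it was -0.30 without NeuroD1_negative_6362 (adjusted p = 0.72). The mean of the positive cells was 43.6% of that of the negative cells in the NeuroD1 strain and 135% in the Glu strain.

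The surface apolipoproteins Apoa1, Apoa4 and Apoc3 lie side by side on chromosome 9. Apoa1 (chr9:46228580-46230466), which the intestine also secretes on high density lipoprotein, was at 89.2, 152 and 126 CPM in NeuroD1 positive libraries and at 1090, 664 and 1990 CPM in the negative ones. In the Glu strain it was at 166, 286 and 197 CPM in positive libraries, and at 863 and 663 CPM in the negative libraries. Positive and negative libraries were far apart in both strains. Apoa1 fell by 3.35 ± 0.41 on the log2 scale in NeuroD1 positive cells (10.2-fold lower, adjusted p = 2.34e-05) and by 1.82 ± 0.41 in Glu positive cells (3.53-fold lower, adjusted p = 0.0119). The Glu call was lost without Glu_negative_5254 (adjusted p = 0.116) or Glu_negative_4665 (0.051).

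Apoa4 (chr9:46240696-46243459), an apolipoprotein that rises in the intestine after a fatty meal, was at 16.9, 24.4 and 53.0 CPM in NeuroD1 positive libraries and at 309, 153 and 777 CPM in the negative ones. Its Glu values were 22.5, 67.9 and 50 CPM in positive libraries, and 181 and 187 CPM in the negative libraries. The NeuroD1 negative libraries spread widely, and still none reached down to a positive one. Apoa4 fell by 3.70 ± 0.57 on the log2 scale in NeuroD1 positive cells (13.0-fold lower, adjusted p = 0.000232). That value was -4.32 without NeuroD1_positive_6362 (adjusted p = 0.000498) and -2.87 without NeuroD1_negative_6362 (adjusted p = 0.00152). Apoa4 fell by 1.98 ± 0.57 in Glu positive cells (adjusted p = 0.0448). This call, the one nearest the threshold among the Glu calls, was lost without NeuroD1_positive_6361 (adjusted p = 0.0536), NeuroD1_negative_6360 (0.0573), Glu_positive_5254 (0.0879), Glu_positive_4665 (0.0793), Glu_negative_5254 (0.175) or Glu_negative_4665 (0.199).

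Apoc3 (chr9:46232933-46235636), which slows the breakdown of triglyceride-rich lipoproteins, lies between Apoa1 and Apoa4 and did not pass in either strain. It was at 16.5, 50.7 and 30.9 CPM in NeuroD1 positive and at 49.7, 30.6 and 78.6 CPM in NeuroD1 negative libraries. Among Glu libraries it was at 2.43, 20 and 16.4 CPM in positive libraries, and at 9.07 and 24.0 CPM in the negative libraries. Groups overlapped in both strains. Neither value passed, at -0.70 ± 0.63 on the log2 scale in the NeuroD1 strain (adjusted p = 0.551, 95% interval -2.03 to 0.64) and -0.36 ± 0.71 in the Glu strain (adjusted p = 0.812, interval -1.84 to 1.13).

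Scarb1 (chr5:125277087-125341094), a receptor for high density lipoprotein that is also found on the enterocyte surface, was the only one of the 10 genes called higher in positive cells. It was at 43.0, 23.3 and 46.6 CPM in NeuroD1 positive and at 10.9, 10 and 5.68 CPM in NeuroD1 negative libraries. In the Glu strain it was at 12.7, 46.9 and 7.12 CPM in positive libraries, and at 4.86 and 7.28 CPM in the negative libraries. The NeuroD1 groups were apart, while Glu_positive_4665 lay within the Glu negative range. Scarb1 rose by 2.07 ± 0.65 on the log2 scale in NeuroD1 positive cells (4.2-fold higher, adjusted p = 0.0396). The call was lost without NeuroD1_positive_6360 (adjusted p = 0.102), NeuroD1_positive_6362 (0.122), NeuroD1_negative_6360 (0.0957), NeuroD1_negative_6361 (0.0901) or NeuroD1_negative_6362 (0.147), and with library totals (0.108). The Glu value of 1.85 ± 0.75 did not pass (adjusted p = 0.145), and was 0.70 without Glu_positive_5160 (adjusted p = 0.532).

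**Figure D2:**
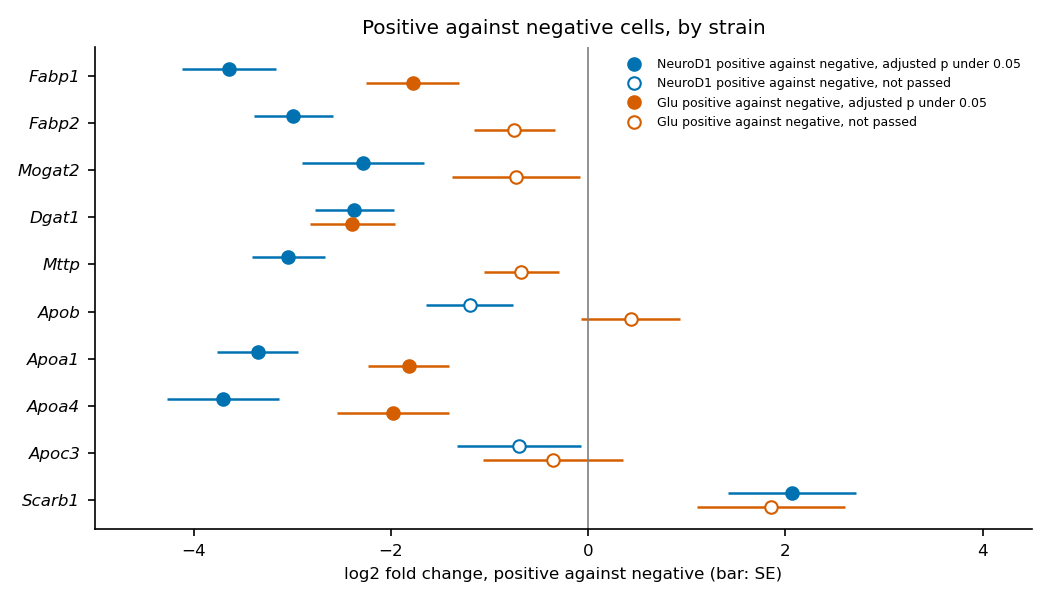
Log2 fold change of each gene in positive against negative cells, with a bar of 1 SE, for the NeuroD1 strain (blue) and the Glu strain (orange), filled where the adjusted p is under 0.05. In the NeuroD1 strain 7 genes lie to the left and Scarb1 to the right of 0 as called values, and in the Glu strain 4 genes do so to the left.

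Without NeuroD1_negative_6360, the NeuroD1 log2 values of the genes that fell were -3.85 for Fabp1, -3.07 for Fabp2, -2.32 for Mogat2, -2.38 for Dgat1, -3.15 for Mttp, -3.44 for Apoa1 and -3.88 for Apoa4. All 7 passed, with adjusted p from 0.000118 (Apoa1) to 0.0478 (Mogat2), so the differences were about as large among libraries that list mt-Rnr1 and mt-Rnr2. Reads of overlapping genes could not be told apart without a stated strand. The antisense gene Gm10680 over Apoa4 had 2080 counts in all libraries together (10 to 620 a library) against 6976 for Apoa4. Trmt10a, which overlaps Mttp, had 1152 (8 to 584 a library) against 12272 for Mttp. Single libraries held as few as 46 counts of Apoa4 and 197 of Mttp. The overlapping counts were thus uneven, and the part of shared reads in any library was not tested.

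The labelled groups also differed in markers of other cells, and the part of these in the results above was not tested. Of all genes tested, 7.61% were called lower and 6.57% higher in NeuroD1 positive cells, and 2.41% and 4.22% in Glu positive cells. Of the 10 enterocyte brush border markers, 7 fell in NeuroD1 positive cells (among them Lct, Alpi, Anpep and Vil1) and 0 rose, and their summed level was 4460 to 5880 CPM in positive and 5460 to 16300 CPM in negative libraries. In Glu positive cells Treh and Alpi fell and Sis and Dpp4 rose, and the sum was 5140 to 7910 CPM in positive and 2970 to 4080 CPM in negative libraries. Sis and Anpep made up most of that sum, with means of 2930 and 2780 CPM in Glu positive and 715 and 1640 CPM in Glu negative cells. Of the 10 Glu estimates, 6 were below 0 and 4 above, with a median of -0.41. All 7 immune markers fell in NeuroD1 positive cells and 4 of 7 in Glu positive cells, with sums of 674 to 1500 against 16800 to 36400 CPM in the NeuroD1 strain and 1430 to 4900 against 12600 to 87900 CPM in the Glu strain. Igha was the largest part of these sums, with a mean of 26700 CPM in NeuroD1 negative and 49300 CPM in Glu negative cells. Of 6 goblet cell markers, 5 fell and 1 rose in NeuroD1 positive cells and 1 fell in Glu positive cells. In the NeuroD1 strain 5 of 5 Paneth cell, 2 of 5 tuft cell and 4 of 7 stromal and endothelial markers fell, and in the Glu strain 0, 1 and 0 of them, with none higher.

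Several apolipoproteins are also made by the liver, so liver markers were counted. Of 8, the 4 tested (Alb, Afp, Ttr and Serpina1a) were higher in NeuroD1 positive cells, with a summed level of 955 to 2020 CPM against 35.8 to 40.7 CPM. Alb had 268 counts in NeuroD1 positive libraries and 8, 8 and 5 in the other groups, and Serpina1a 105 against 5, 20 and 0. These passed the filter on low counts only through the group where they are high, so their direction was in part fixed beforehand. Fga, Fgb and Ahsg were at 0 in all 4 groups. Apoh, also not tested, averaged 0.579 CPM in NeuroD1 positive and 0.352 CPM in NeuroD1 negative cells. Ttr was higher and Afp lower in Glu positive cells, with sums of 56.2 to 71.2 against 8.4 to 26.8 CPM. Apoa1 and Fabp1, also liver genes, were lower in NeuroD1 positive cells, and any part of liver-type RNA in their levels was not tested.

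The difference of the positive against negative contrasts between the strains was tested for each gene in the same model. None of the 10 passed with edgeR, though 6 had an unadjusted p under 0.05, in a comparison where 0.0907% of all genes were called higher and 0.0209% lower. The unadjusted p was under 0.05 for 1558 of all genes. Mttp came nearest, with a NeuroD1 contrast lower by 2.37 ± 0.53 on the log2 scale than the Glu contrast (adjusted p = 0.0891, 95% interval of the difference -3.48 to -1.26). It was followed by Fabp2, with a difference of -2.23 ± 0.57 (adjusted p = 0.143). With DESeq2 both passed (adjusted p = 0.0119 for Mttp and 0.0289 for Fabp2), and without Glu_positive_4665 Mttp passed with edgeR (adjusted p = 0.0492). The median of the 10 differences was -1.59, against -0.20 over all genes. Dgat1 had a difference of 0.02 ± 0.55, with an interval of -1.13 to 1.18, which leaves room for a more than 2-fold difference in either direction.

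Between the positive cells of the strains, Mttp alone of the 10 passed. It was lower in NeuroD1 than in Glu positive cells by 1.53 ± 0.35 on the log2 scale (2.88-fold, adjusted p = 0.0115), in a comparison where 4.95% of all genes were called lower and 3.18% higher. Without NeuroD1_positive_6362 its adjusted p was 0.0654. The groups were also apart for Fabp2 (-0.94 ± 0.37, adjusted p = 0.127) and Apoa1 (-0.82 ± 0.37, adjusted p = 0.185), lower in NeuroD1 positive cells, and for Dgat1 (0.78 ± 0.40, adjusted p = 0.233), higher there. None of these passed, and how many of all genes have groups apart was not counted. The median of the 10 was -0.50, against -0.14 over all genes.

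Between the negative cells, 0 of the 10 passed with edgeR, where 0.363% of all genes were called higher and 0.126% lower in the NeuroD1 strain and the unadjusted p was under 0.05 for 1296 genes, 4 of the 10 among them. DESeq2 called 0 of the 10. All 10 estimates were above 0, with a median of 1.04 against -0.01 over all genes. The lowest adjusted p was that of Fabp2 (1.30 ± 0.43 on the log2 scale, adjusted p = 0.296). Both contrasts between positive and negative cells use these negative cells, so the strain difference in the negative group enters the difference of the contrasts given above. The brush border markers had the same direction, with 10 of 10 estimates above 0, 0 passing with edgeR and a median of 1.43. Of these markers 7 had an unadjusted p under 0.05 with edgeR, and DESeq2 called 1.

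Levels of different genes are set side by side per kilobase of the principal transcript, as a rough description. The libraries were amplified, the counting step is not given, and coverage along the transcripts was not checked. The principal transcript can also be shorter than all exons of a gene, as for Scarb1 (2521 against 8500 bp). In NeuroD1 positive cells Fabp2 was highest at 250 CPM per kb, above Fabp1 at 143 and Apoa1 at 118, which overlapped each other. Apob at 66.9 and Apoc3 at 62.2 CPM per kb overlapped, as did, each with its neighbour, Mttp (17.5), Apoa4 (17.3), Scarb1 (14.9) and Dgat1 (13.0). Mogat2 was lowest at 7.05, apart from Dgat1. In NeuroD1 negative cells Fabp2 (1980 CPM per kb), Fabp1 (1780) and Apoa1 (1210) led with overlapping ranges, Apoa4 came next at 227, and Scarb1 at 3.52 was below Mogat2 at 34.6, the ranges being apart.

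In Glu positive cells Fabp2 (479 CPM per kb), Fabp1 (264) and Apoa1 (209) led again with overlapping ranges, and Apob at 74.1 and Mttp at 50.5 overlapped below them. The lowest were Mogat2 (9.52), Scarb1 (8.82) and Dgat1 (7.60), which overlapped. In Glu negative cells Fabp1 was highest at 911 CPM per kb, above Fabp2 at 808 and Apoa1 at 737, which overlapped, and Scarb1 was lowest at 2.41. The place of Apoa4 in the order of means therefore moved from the fourth in both negative groups to the seventh in NeuroD1 positive and the sixth in Glu positive cells. Its range overlapped that of Apob in NeuroD1 negative, Mttp and Scarb1 in NeuroD1 positive, and Apoc3 in Glu positive cells. Only in Glu negative cells was it apart from both neighbours.

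Ratios within a library do not depend on its scaling, and are given here as a description with no test. The ratio of Apob to Apoa1 counts was 7.51, 6.96 and 8.47 in NeuroD1 positive libraries and 1.36, 1.21 and 2.07 in the negative ones. Among Glu libraries it was 7.26, 2.73 and 5.68 in positive libraries, against 1.06 and 0.936 in the negative libraries. Positive and negative libraries were apart in both strains, so relative to Apoa1 the positive cells held more Apob.

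The ratio of Mttp to Apob moved the other way, from 0.330, 0.444 and 0.211 in NeuroD1 negative to 0.112, 0.0711 and 0.0545 in NeuroD1 positive libraries. The Glu ratios were 0.386 and 0.462 in negative and 0.215, 0.246 and 0.135 in positive libraries, again apart. Apoc3 to Apoa1 was 0.185 to 0.334 in NeuroD1 positive and 0.0395 to 0.0461 in NeuroD1 negative libraries, while the Glu groups overlapped on it. Relative to Vil1, a structural protein of the microvillus, Apoa1 was 0.220 to 0.387 in NeuroD1 positive against 1.23 to 1.61 in negative libraries, and 0.409 to 0.841 against 1.97 to 2.13 in the Glu strain. Apob relative to Vil1 overlapped between NeuroD1 positive (1.65 to 3.03) and negative (1.49 to 3.34) libraries, and was apart and higher in Glu positive (2.29 to 4.77) than in Glu negative (1.84 to 2.26) libraries.

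**Figure D3:**
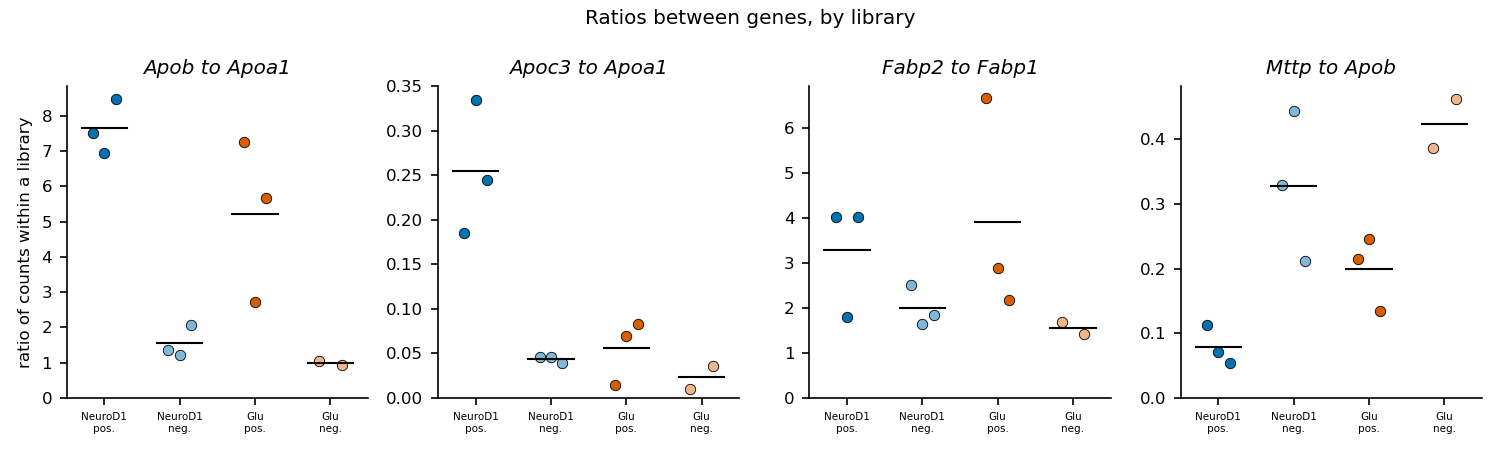
Ratios of counts between genes within each library, on linear axes from 0, with 1 point per library and a bar at the group mean in the 4 groups. The ratio of Apob to Apoa1 is 6.96 to 8.47 in NeuroD1 positive and 1.21 to 2.07 in NeuroD1 negative libraries, and the ratio of Mttp to Apob is lower in the positive libraries of both strains.

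The rest of the fat absorption pathway was followed with 8 lists of 58 genes in all, of which 54 were tested. In NeuroD1 positive cells 17 fell and 1 rose, with a median log2 fold change of -0.99 against 0.02 over all genes. Of all genes tested, 7.61% were called lower and 6.57% higher in that comparison. In Glu positive cells 1 fell and 1 rose, with a median of -0.33 against 0.12. There 2.41% of all genes were called lower and 4.22% higher, shares that 1 of 54 does not exceed. The same shares apply to each list below. With edgeR 0 passed in the difference between the strains (12 had an unadjusted p under 0.05, and DESeq2 called 3) and 0 between the negative cells (9 with an unadjusted p under 0.05, and 0 by DESeq2).

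Of 8 uptake and carrier genes, 4 fell in NeuroD1 positive cells. They were Acsl5, an acyl-CoA synthetase (-2.46 ± 0.36 on the log2 scale, adjusted p = 0.000124), Rbp2, the retinol carrier (-2.05 ± 0.47, adjusted p = 0.00584), Fabp6, the bile acid carrier, and Dbi, the acyl-CoA binding protein. Fabp6 rested on NeuroD1_negative_6362, since its log2 value of -2.32 became -0.61 without it (adjusted p = 0.552), and its call was also lost without any 1 of the NeuroD1 positive libraries (adjusted p up to 0.096). Of 9 re-esterification genes, 2 fell: Soat2, which esterifies cholesterol (-2.61 ± 0.54, adjusted p = 0.00283), and Agpat2 (-1.86 ± 0.55, adjusted p = 0.0275), a call lost without any 1 of the NeuroD1 libraries other than NeuroD1_positive_6360, with adjusted p up to 0.125 (NeuroD1_positive_6362).

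Of 10 assembly and export genes, 4 fell in NeuroD1 positive cells: Tm6sf2, which aids lipidation of Apob particles (-3.06 ± 0.59, adjusted p = 0.00157), the lipid droplet proteins Cideb (-2.11 ± 0.38, adjusted p = 0.000976) and Plin3 (-1.89 ± 0.52, adjusted p = 0.0194), and P4hb, the protein partner of Mttp (-1.0 ± 0.31, adjusted p = 0.039). Plin3 did not pass without any 1 of the NeuroD1 libraries other than NeuroD1_negative_6361, with adjusted p up to 0.142 (NeuroD1_negative_6362). P4hb did not pass without any 1 of the NeuroD1 libraries other than NeuroD1_negative_6361, nor without Glu_negative_5254 or Glu_negative_4665, with adjusted p up to 0.226 (-0.67, without NeuroD1_negative_6362). The export gene Sar1b was at -0.87 ± 0.37 (adjusted p = 0.127), and passed with the NeuroD1 groups fitted alone (0.0247). Of 5 cholesterol transport genes, 2 fell, the paired sterol exporters Abcg5 (-2.87 ± 0.66, adjusted p = 0.00584) and Abcg8 (-2.54 ± 0.70, adjusted p = 0.0194), the second not passing without NeuroD1_positive_6360, NeuroD1_positive_6361, NeuroD1_negative_6360 or NeuroD1_negative_6362, with adjusted p up to 0.0918, and at -3.32 without NeuroD1_positive_6362.

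Of 7 other apolipoproteins 3 were tested. Apoc2, the cofactor of lipoprotein lipase, fell by 2.41 ± 0.65 on the log2 scale in NeuroD1 positive cells (adjusted p = 0.0167) and by 2.77 ± 0.70 in Glu positive cells (adjusted p = 0.0243). The first call was lost without NeuroD1_positive_6360, NeuroD1_positive_6362 or NeuroD1_negative_6362, with adjusted p up to 0.105, and the log2 value was -3.57 without NeuroD1_positive_6361. The second was lost without Glu_positive_5160 or either Glu negative library, with adjusted p up to 0.138, and with the Glu groups fitted alone (0.0771), and was -3.44 without Glu_positive_4665. Apom, which carries sphingosine phosphate on lipoproteins, had 51 counts in the NeuroD1 positive libraries together and 0 in the negative ones, at least 16.8-fold higher (floor of 3 counts summed over the negative libraries), and its call was lost without NeuroD1_negative_6360 (adjusted p = 0.0756). With 21 counts in Glu positive and 2 in Glu negative libraries, it passed the filter on low counts only through NeuroD1 positive cells.

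Of 11 transcriptional regulators, 4 fell in NeuroD1 positive cells: Prdm1 (-3.77 ± 0.87, adjusted p = 0.00593), Creb3l3, a membrane-bound factor that acts on apolipoprotein genes (-3.07 ± 0.76, adjusted p = 0.00996), Maf (-3.04 ± 0.48, adjusted p = 0.000268) and Hnf4g (-1.87 ± 0.39, adjusted p = 0.00306). Creb3l3 was at -3.80 without NeuroD1_positive_6361. All 7 immune markers also fell in NeuroD1 positive cells, and the part of immune cells in the values of Prdm1 and Maf was not tested. Hnf4a, a factor for many enterocyte genes, averaged 355 CPM in NeuroD1 positive and 365 CPM in NeuroD1 negative libraries, and 273 against 231 CPM in the Glu strain. In neither strain did it pass (adjusted p = 0.968 and 0.785). None of the 5 lipid breakdown genes passed with edgeR in either strain, where 1 in each had an unadjusted p under 0.05 and DESeq2 called 1 in the NeuroD1 strain and 0 in the Glu strain.

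Of the 3 genes of Apob mRNA editing, A1cf, the cofactor of the editing enzyme, rose in Glu positive cells by 2.04 ± 0.47 on the log2 scale (adjusted p = 0.0147). That call was lost without Glu_negative_5254 (adjusted p = 0.0696) or Glu_negative_4665 (0.213), and with the Glu groups fitted alone (0.0774). Apobec1, the enzyme itself, was at -0.57 ± 0.55 in the NeuroD1 strain and -1.25 ± 0.62 in the Glu strain and did not pass in either.

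Between the positive cells, 5 of the pathway genes were lower in the NeuroD1 strain: Fabp6 (-4.37 ± 0.72, adjusted p = 0.00112), Prdm1 (-4.09 ± 0.87, adjusted p = 0.00729), Maf (-2.61 ± 0.47, adjusted p = 0.00211), Tm6sf2 (-2.24 ± 0.57, adjusted p = 0.0209) and Hnf4g (-1.36 ± 0.39, adjusted p = 0.0361). Of all genes tested, 4.95% were called lower and 3.18% higher in that comparison. Prdm1 rested on Glu_positive_5254, without which its value was -1.75 (adjusted p = 0.0647), and Maf was at -1.93 without that library. Between the same cells 4 of 7 immune and 5 of 6 goblet cell markers were also lower. Their part in the values of Prdm1 and Maf was not tested. Tm6sf2 and Hnf4g did not pass without any 1 of several libraries: all 3 NeuroD1 positive ones and Glu_positive_5160 for both, and also Glu_positive_5254 and NeuroD1_negative_6360 for Hnf4g, with adjusted p up to 0.112 (Tm6sf2, at -1.41 without Glu_positive_5160) and 0.158 (Hnf4g). Fitted on the positive groups alone, their adjusted p was 0.0716 and 0.072. One gene was higher, Mogat1, a relative of Mogat2, with 18 counts in NeuroD1 positive and 0 in Glu positive libraries. This is at least 7.88-fold against the floor of 3 counts over the group. The call did not hold without any 1 of the NeuroD1 positive libraries or Glu_positive_5254 (adjusted p up to 0.0682). Mogat1 counts differed the same way between the negative cells, with 24 in NeuroD1 negative and 1 in Glu negative libraries. The fold bounds given for Mogat1 and Apom leave out the spread between libraries.

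**Figure D4:**
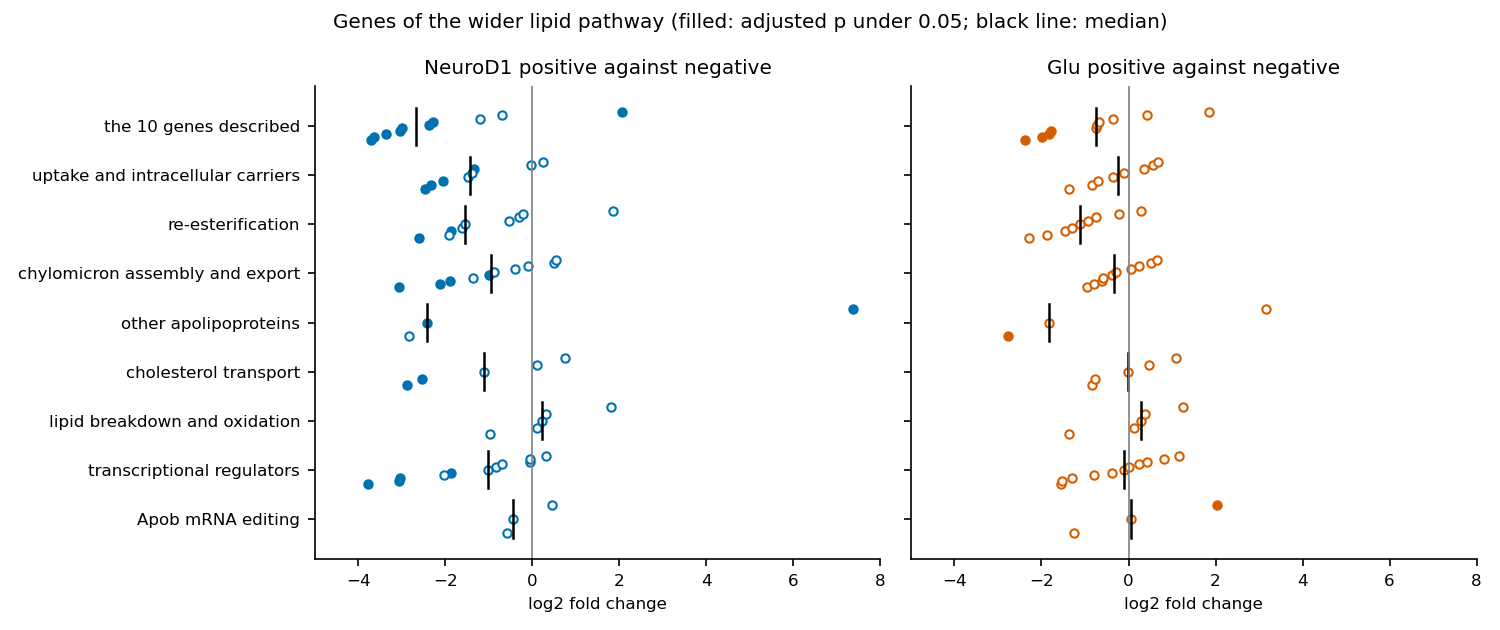
Log2 fold change of each tested pathway gene in positive against negative cells, by list and with the 10 genes in the top row, for the NeuroD1 strain (left) and the Glu strain (right), with a line at each median, filled where the adjusted p is under 0.05. In the NeuroD1 strain 17 of 54 genes are called lower, where 7.61% of all genes tested are, and the value of Apom there is a fitted one against libraries at 0.

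For Apob and for Scarb1, the genes with the most similar pattern were listed, by the root mean square difference of centred log2 CPM over all 11 libraries among 6716 well-expressed genes. The 5 nearest to Apob were Anpep (0.29), Galm (0.33), Ano6 (0.34), Entpd7 (0.37) and Lpgat1 (0.37). Anpep, a brush border peptidase, averaged 1980 CPM in NeuroD1 positive, 5280 in NeuroD1 negative, 2780 in Glu positive and 1640 in Glu negative libraries, and Apob had the same order of groups, at 932, 2140, 1030 and 768 CPM. The nearest of the other 9 genes to Apob was Fabp2, at rank 2638 with a difference of 0.90. The measure does not adjust for the size of a gene's changes. A gene that moves the same way but by more can therefore rank far away. Apob and Fabp2 were both highest in NeuroD1_negative_6362, at 4120 and 3010 CPM, so the rank does not show that they moved differently.

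The 5 nearest to Scarb1 were Enc1 (0.50), Srpk2 (0.52), Rnf145 (0.57), Adgrg1 (0.57) and Clcn5 (0.59). Enc1 averaged 39.0 CPM in NeuroD1 positive, 12.2 in NeuroD1 negative, 22.4 in Glu positive and 7.07 in Glu negative libraries, close to the 37.6, 8.88, 22.2 and 6.07 CPM of Scarb1. The libraries share their scaling and depth, and likeness over 11 libraries describes these levels only.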

How the data were processed

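RNA of sorted cells was measured in 11 libraries. The authors' deposited table held expected counts per gene, in 1 column for each library per the file headers. Values of 848 genes were not whole, and all were rounded. Each library started from 2 ng of RNA and was amplified, per the labels' protocols. The build was GRCm38, and the tools named are Cufflinks 2.2.1, TopHat2 2.1.0 and CASAVA, per the submitters' processing notes. Not given in the sources used here are the strand setting, the counting step and the annotation release.

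Symbols and positions came from GENCODE vM21 (GRCm38), which matched 36341 genes. Samples were grouped by the strain and cell population in the labels. Genes with low counts were removed with filterByExpr, counts were scaled with TMM factors, and 4 group means were fitted to 14332 genes in 1 model with edgeR 4.0.16 (R 4.3.3), whose quasi-likelihood test gave 5 contrasts with Benjamini-Hochberg adjusted p over all genes, called under 0.05. The SE is the fold change divided by the square root of F, and fold changes are on the log2 scale. The model was tested on simulated data. Replicates differed by more than counting noise in every pair. The depth of 2279595 to 5722381 counts sets the counting precision, and the spread between 2 or 3 libraries limits the tests. Alternatives were other scaling factors, library totals, no filter, mt-Rnr1 and mt-Rnr2 left out, only the groups compared, a replicate block, DESeq2 1.42.0, and leaving out each library. The genes, lists and tests were chosen with earlier results of these data known. Named genes were the 10, the 3 called genes of each list with the largest change per contrast, the 5 nearest to Apob and to Scarb1, and marker genes; Dbi, P4hb, Sar1b, Hnf4a, Apobec1 and, in the NeuroD1 strain, Hnf4g were added after their values were seen. Sequences are from RefSeq.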

Additional observations from a re-analysis of the deposited data

How the results depend on the processing

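The calls of Apoa1, Apoa4, Mttp, Fabp1, Fabp2 and Dgat1 in the NeuroD1 strain passed in all 18 alternatives. No called value of the 10 genes changed sign in any alternative. With 2 or 3 libraries a group, with a library left out, the 4 Glu calls were lost in 13 of 44 refits and the 8 NeuroD1 calls in 8 of 88. In these refits a group left with 1 library is assumed to vary like the others. The cause of each change was not tested. Library totals in place of scaling factors moved the median of all genes from 0.02 to -0.28 (NeuroD1 strain), from 0.12 to -0.19 (Glu strain), from -0.14 to -0.51 (positive cells) and from -0.01 to -0.39 (negative cells).

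For the NeuroD1 strain, the members called higher (1) became 0 with library totals and 0 to 1 with a library left out. Genes called higher (941) ranged from 534 to 1338 and genes called lower (1090) from 720 to 1419 with a library left out.

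For the Glu strain, genes called higher (605) became 360 with library totals, 964 with no filter, 195 with only the groups compared and 967 with DESeq2, and 108 to 818 with a library left out. Genes called lower (346) became 587 with no filter, 195 with the replicate block, 145 with only the groups compared and 582 with DESeq2, and 79 to 369 with a library left out. The 4 members called lower became 1 with only the groups compared, and 0 to 4 with a library left out.

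For the difference between the strains, genes called higher (13) became 78 with no filter and 62 with DESeq2, and 5 to 21 with a library left out. Genes called lower (3) became 11 with library totals, 260 with no filter, 10 with the replicate block and 115 with DESeq2, and 0 to 31 with a library left out. Members called lower (0) became 3 with no filter, 1 with the replicate block and 2 with DESeq2, and 0 to 1 with a library left out. The 3 with no filter were Fabp1 (adjusted p = 0.0326), Fabp2 (0.0016) and Mttp (0.00285), and the 1 with the replicate block was Fabp2 (0.0438). The block also ended the Glu call of Apoc2 (-2.68, adjusted p = 0.0833) and changed no other call of the genes named in the 3 contrasts it could be fitted to.

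Between the positive cells, genes called higher (456) became 283 with library totals, 241 with only the groups compared and 737 with DESeq2, and 245 to 860 with a library left out. Genes called lower (709) became 1183 with library totals, 1248 with no filter, 324 with only the groups compared and 1122 with DESeq2, and 303 to 1322 with a library left out. Members called lower (1) became 2 with library totals and 2 with no filter, Fabp2 being the second (adjusted p = 0.038 and 0.0412), and 0 to 1 with a library left out.

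Between the negative cells, genes called higher (52) became 153 with no filter and 130 with DESeq2, and 21 to 89 with a library left out. Genes called lower (18) became 38 with library totals, 92 with no filter, 50 with only the groups compared and 47 with DESeq2, and 4 to 44 with a library left out. Members called higher (0) became 1 with no filter, which was Apob (1.45, adjusted p = 0.0146).

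Values that changed sign were not called in any setting. For Apoc3 in the Glu strain the log2 value ran up to 0.53 with a library left out, from a lowest of -0.87. Its difference between the strains was 0.36 with the replicate block and ran from -1.21 to 0.20 with a library left out. For Dgat1 that difference was -0.02 with RLE factors and -0.01 with DESeq2, and ran from -0.40 to 0.37. For Scarb1 it ran from -0.21 to 1.38. For Apob between the positive cells the value ran from -0.32 to 0.05. For Hnf4a, with a library left out, the log2 value ran from -0.08 to 0.02 in the NeuroD1 strain and from -0.46 to 0.61 in the Glu strain.

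The numbers in the labels were checked as pairs. Deviations of same-numbered libraries from their group means correlated at 0.0459, 0.0104 and 0.0098 in the NeuroD1 strain and at 0.045 in the Glu strain, across genes, and NeuroD1_positive_6361 correlated best with NeuroD1_negative_6362 (0.0201). These small values cannot exclude pairing, and in the Glu strain the crossed numbers gave -0.045, which the same-number value fixes. In the main fit the numbers were not treated as pairs, because the labels do not say what they mark. The replicate block was fitted as an alternative. Contrasts between the strains could not be fitted with the block for the positive or the negative cells alone.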
